A study of Homo sapiens with 6 samples.

Results

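Collagen genes encode the chains of the most abundant proteins of the extracellular matrix. They were taken here as every entry of the deposited count table whose symbol consists of COL, a type number, A and a chain number, which gave 44 of 19868 entries. The 44 genes comprised 11 fibrillar collagens, 8 basement membrane collagens and 25 others. The cells were NGP, an established human neuroblastoma line, cultured in RPMI-1640 with 20% fetal bovine serum. Bulk RNA sequencing gave 3 Control libraries and 3 CAMKV-KD libraries, in which CAMKV, a kinase-like protein of the calmodulin-dependent kinase family, was knocked down. The sample descriptions name the Control as an sh-control, a control hairpin. They do not say whether 1 or several hairpins against CAMKV were used, nor whether each library had its own culture. P-values therefore reflect only how far the 6 libraries spread, and this spread may be technical. The question addressed here is how collagen mRNAs differ between CAMKV-KD and Control cells.

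Every collagen molecule is a triple helix of chains that are hydroxylated, folded and assembled in the endoplasmic reticulum before secretion. Fibrillar collagens (types I, II, III, V, XI, XXIV and XXVII) form the banded fibrils of connective tissue, whereas type IV forms the sheet-like network of basement membranes, with types XV and XVIII attached to it. The others include the FACIT collagens, which bind along fibrils through interrupted helices, the beaded filaments of type VI, the short-chain networks of types VIII and X, and the membrane-spanning types XIII, XVII, XXIII and XXV. In neuroblastoma, collagen is known mainly from the stroma, and tumour cells of a mesenchymal state also transcribe collagen genes.

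Total counts per library ran from 20238281 to 24701564. CAMKV was 81.9 ± 4.04 CPM (CPM, TMM-scaled counts relative to library size; SD, n = 3) in Control and 24.7 ± 1.25 CPM (SD, n = 3) in CAMKV-KD, so 30.1% of the Control level remained. Groups were compared with edgeR's quasi-likelihood test over 13366 entries that passed a filter on low counts, and a gene was called where the Benjamini-Hochberg adjusted p lay below 0.05. In bulk RNA, fewer cells of a type and less RNA per cell cannot be told apart.

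Collagen transcripts changed in both directions. Of the 44 genes, 29 passed the filter, 9 were higher in CAMKV-KD, 6 were lower and 14 were not called. Thus 51.7% of the tested collagen genes were called, beside 36.3% of all tested genes. The difference between these shares was not tested, and members were chosen with earlier results of these data known. Among all genes, 17.3% were called higher and 19% lower. The values of the 3 libraries of one group lay entirely above or below those of the other group for 16 of the 29 collagen genes, or 55.2%, beside 52.8% of all tested genes. The median log2 fold change of the tested collagen genes was 0.24, against 0.0045 for all genes. It moved to −0.036 without Control 2 and to 0.043, 0.10 and 0.12 without CAMKV-KD 1, 2 and 3, so it was not stable. The filter was rerun in each of these fits, so the collagen genes that enter the median can differ too. The count of lower genes was 3 without CAMKV-KD 1 or CAMKV-KD 2. Calls of 11 of the 15 genes were kept in all 6 fits that each left out 1 library, and the other 4 are named with their values below. In addition, 5 tested genes (COL9A2, COL6A5, COL28A1, COL23A1 and COL25A1) reached 0.444 CPM in all 3 libraries of only 1 group. COL28A1 and COL25A1, both called lower, passed the filter through Control, where they were high, so these calls are not separate support.

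**Figure D1:**
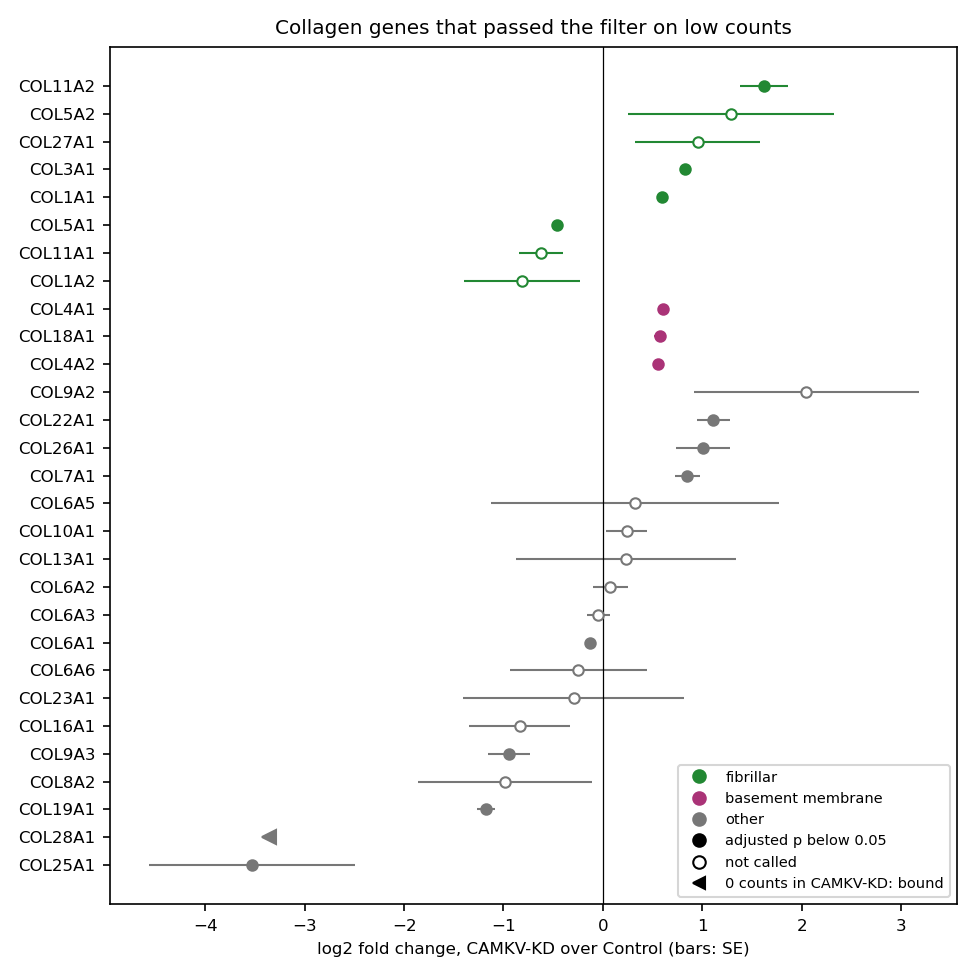
Log2 fold change of each tested collagen gene, CAMKV-KD against Control (horizontal axis; bars are ± 1 SE of edgeR's quasi-likelihood fit), ordered by class, with filled points for called genes and open points for the rest. COL3A1, COL1A1, COL4A1, COL4A2 and COL18A1 lie between 0.55 and 0.83 with short bars, COL5A1 lies at −0.46, and the triangle for COL28A1, which had no count in CAMKV-KD, is its bound.

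By class, the 3 tested basement membrane collagens were all called higher. Of the 8 tested fibrillar collagens, 3 were higher and 1 was lower. Of the 18 tested others, 3 were higher and 5 were lower. Thus 50% of the fibrillar genes and 44.4% of the others were called, beside 36.3% of all tested genes (17.3% higher and 19% lower). The lower count was 2 among the others without CAMKV-KD 1 or CAMKV-KD 2 and 3 without CAMKV-KD 3, and it was 2 among the fibrillar genes without Control 2. Median log2 fold changes were 0.57, 0.71 and −0.09 for these classes in that order, beside 0.0045 for all tested genes. Summed over all 44 genes, collagen reads made up 1393 ± 81.0 CPM in Control and 1747 ± 6.31 CPM in CAMKV-KD (SD, n = 3 each). The basement membrane genes summed to 523.5 ± 19.9 CPM in Control and 774.9 ± 1.5 CPM in CAMKV-KD. The fibrillar genes summed to 449.3 ± 31.4 and 583.8 ± 8.77 CPM, and the groups did not overlap in either class. The sum of the others was 420.3 ± 29.9 CPM in Control and 387.9 ± 2.68 CPM in CAMKV-KD, and there the libraries overlapped. As a share of collagen reads, the basement membrane class accounted for 37.6% ± 0.79 in Control and 44.4% ± 0.16 in CAMKV-KD, and the others for 30.2% ± 0.43 and 22.2% ± 0.23. These sums were not tested, and long transcripts weigh more in them than short ones.

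**Figure D2:**
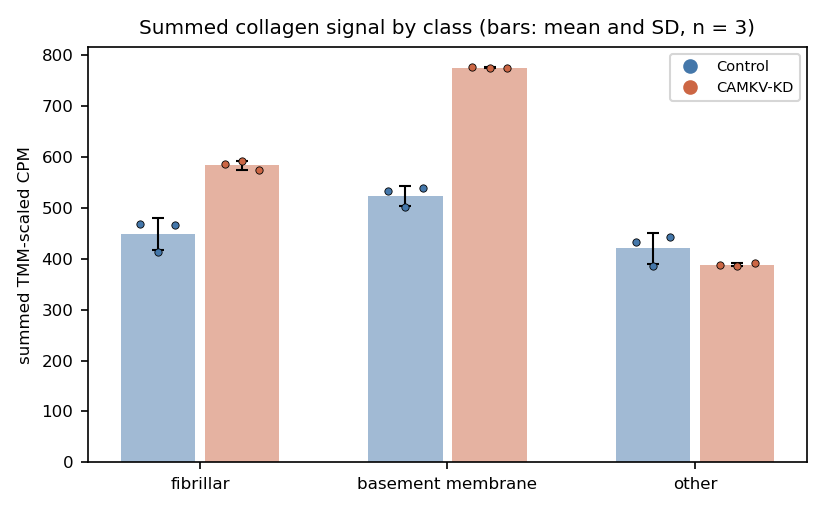
Summed level of the collagen genes by class (CPM, axis from 0); points are libraries, bars the mean of 3 libraries and whiskers the SD. The basement membrane sum lies near 523.5 CPM in Control and 774.9 CPM in CAMKV-KD, while the sums of the other collagens overlap between the groups, around 420.3 and 387.9 CPM.

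The genes of the type IV collagen network were among the clearest changes. COL4A1 and COL4A2 encode the chains of the widely expressed type IV molecule, which contains more COL4A1 than COL4A2 chains. They lie head to head on chromosome 13 of GRCh38. COL4A1 (MSTRG.7395) is on the minus strand from 110148963 to 110307233, and COL4A2 (MSTRG.7397) is on the plus strand from 110305812 to 110513209, in GENCODE release 29. Their annotated spans overlap, but their exons do not. Exons of COL4A2 do overlap those of the antisense genes COL4A2-AS1 and COL4A2-AS2, and the part of shared reads was not tested. Because COL4A1 and COL4A2 moved together, the RefSeq promoter windows of the pair are printed here. Each window runs from 250 bases before to 50 bases after the RefSeq transcript start, on the gene's own strand. The COL4A1 window is chr13:110307108-110307407 on the minus strand and the COL4A2 window is chr13:110307034-110307333 on the plus strand (both GRCh38.p14). Capitals mark the GC box GGGCGG and the CCAAT box, each searched on both strands.
COL4A1: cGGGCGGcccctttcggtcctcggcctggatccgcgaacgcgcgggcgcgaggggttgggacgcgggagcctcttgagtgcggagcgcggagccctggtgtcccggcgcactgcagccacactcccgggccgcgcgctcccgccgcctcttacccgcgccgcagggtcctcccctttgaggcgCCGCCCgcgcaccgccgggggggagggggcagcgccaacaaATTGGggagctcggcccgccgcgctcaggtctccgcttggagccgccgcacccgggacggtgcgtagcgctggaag
COL4A2: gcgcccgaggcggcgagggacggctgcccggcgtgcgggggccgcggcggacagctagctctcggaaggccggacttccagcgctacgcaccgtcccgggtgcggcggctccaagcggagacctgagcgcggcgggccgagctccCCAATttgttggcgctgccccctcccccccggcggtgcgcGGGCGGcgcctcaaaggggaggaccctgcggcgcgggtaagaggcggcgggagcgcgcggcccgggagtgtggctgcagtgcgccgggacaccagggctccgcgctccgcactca
The transcript starts are 127 bp apart and point away from each other. The windows share 226 bases, from 110307108 to 110307333, which are the same DNA read on opposite strands. The CCAAT box and 1 GC box lie in the shared bases, and the COL4A1 window holds a further GC box at its 5′ end outside them. Over 35116 RefSeq windows of the same length, 45% hold a GC box and 34.6% hold CCAAT. The letters TATAAA, found in 11.5% of windows, are not in either one. A match describes the letters only.

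COL4A2 read 306.6, 287.2 and 304.9 CPM in Control 1 to 3 and 437.8, 442.1 and 436.5 CPM in CAMKV-KD 1 to 3. The groups did not overlap, and the SD within CAMKV-KD was 2.95 CPM. The log2 fold change was 0.55 ± 0.034 (SE; adjusted p = 0.000346, edgeR). Its partner COL4A1 read 107.4, 102.6 and 107.0 CPM in Control and 162.3, 157.9 and 161.4 CPM in CAMKV-KD. Again every CAMKV-KD library lay above every Control library, with a log2 fold change of 0.60 ± 0.034 (SE; adjusted p = 0.000303, edgeR). COL18A1, on chromosome 21 from 45405137 to 45513720, encodes the heparan sulfate-bearing type XVIII chain whose cleaved end is endostatin. It read 117.9, 110.5 and 125.7 CPM in Control and 176.5, 173.9 and 175.9 CPM in CAMKV-KD, without overlap, and rose by 0.57 ± 0.054 on the log2 scale (SE; adjusted p = 0.00117, edgeR). Exons of COL18A1 overlap those of SLC19A1 on the opposite strand. The strand setting of the counting is not given in the sources used here, so reads in the overlap cannot be assigned. SLC19A1 itself had a log2 fold change of 0.09 ± 0.20 (SE; adjusted p = 0.757, edgeR).

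The remaining basement membrane collagens were near the detection limit. COL4A5, COL4A6 and COL15A1 had 0 counts in every library, where 3 counts, the limit that a count of 0 allows, correspond to 0.121 to 0.145 CPM. COL4A3 had 2 counts in CAMKV-KD 1 and none elsewhere. COL4A4 had at most 8 counts in a library. These limits cover counting error only, since the labels name no molecular identifiers. At this depth the type IV transcripts detected were thus nearly all of the COL4A1 and COL4A2 kind, and those of the tissue-restricted chains COL4A3 to COL4A6 were at or near 0.

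Among fibrillar collagens, COL3A1 of type III and COL1A1 of type I rose while COL5A1 of type V fell. COL3A1 (MSTRG.16260; chromosome 2, 188974320 to 189012746, plus strand) encodes the only chain of type III collagen, abundant in distensible tissues. It read 113.4, 107.7 and 110.4 CPM in Control and 196.7, 198.6 and 194.7 CPM in CAMKV-KD. The groups were far apart relative to their spread, and its log2 fold change of 0.83 ± 0.033 (SE) had an adjusted p of 0.00013 in edgeR. COL1A1 (MSTRG.12055; chromosome 17, 50183289 to 50201632, minus strand) encodes the major chain of type I collagen, the main fibril protein of bone, skin and tendon. It read 146.2, 139.1 and 151.3 CPM in Control and 215.5, 222.4 and 219.7 CPM in CAMKV-KD. The groups did not overlap, and the log2 fold change was 0.59 ± 0.041 (SE; adjusted p = 0.000508, edgeR).

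COL1A2, which encodes the partner chain of the usual type I heterotrimer, was near the detection limit. It had 20, 15 and 9 counts in Control and 3, 12 and 9 counts in CAMKV-KD, or 0.639 ± 0.215 and 0.368 ± 0.232 CPM (SD, n = 3). These counts overlapped, and with a log2 fold change of −0.82 ± 0.58 (SE; adjusted p = 0.334, edgeR) the gene was not called. COL1A1 counts in the same libraries ran from 3031 to 5334. Per summed exon length, COL1A1 exceeded COL1A2 by 201-fold, 230-fold and 426-fold in Control 1 to 3, and by 435-fold and 622-fold in CAMKV-KD 2 and 3. No ratio is read for CAMKV-KD 1, where COL1A2 had 3 counts.

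The type V and XI chains regulate fibril diameter from within mixed fibrils. COL5A1 (MSTRG.27603; chromosome 9, 134641774 to 134844843, plus strand) read 140.7, 135.9 and 138.3 CPM in Control and 103.3, 100.3 and 97.7 CPM in CAMKV-KD. It was lower in every CAMKV-KD library (log2 fold change −0.46 ± 0.037, SE; adjusted p = 0.000707, edgeR). Its partner COL5A2, which lies next to COL3A1 on the opposite strand of chromosome 2, read 18.2, 0.597 and 19.3 CPM in Control and 32.2, 32.3 and 28.9 CPM in CAMKV-KD. Control 2 stood apart with 13 counts, beside 441 and 431 in Control 1 and 3. The groups did not overlap, but COL5A2 was not called with all libraries (log2 fold change 1.29 ± 1.0, SE; adjusted p = 0.389, edgeR). Without Control 2 it was 0.73, with an adjusted p of 0.00798 (edgeR), and no other fit called COL5A2. Such values, more than 5 times below all other libraries, occurred for 49 to 80 tested entries per library, with the most in Control 2, and among collagen genes for COL5A2 and COL23A1 in Control 2 and for COL8A2 in CAMKV-KD 2. The source of these low values was not tested.

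COL11A2, a type XI chain of cartilage fibrils, was low in both groups and higher in CAMKV-KD. It read 0.909, 1.10 and 1.44 CPM in Control and 3.68, 2.86 and 4.10 CPM in CAMKV-KD, without overlap (log2 fold change 1.62 ± 0.24, SE; adjusted p = 0.00503, edgeR). Its partner COL11A1 read 40.9, 25.7 and 41.0 CPM in Control and 19.6, 25.9 and 24.6 CPM in CAMKV-KD. The low Control 2 value lay inside the CAMKV-KD range, and COL11A1 was not called (−0.62 ± 0.22, SE; adjusted p = 0.0813, edgeR). Its call depended on the setting: the adjusted p was 0.0182 without Control 2, where the log2 fold change was −0.81, and 0.0367 in DESeq2. These were the only calls, 1 of the 6 fits without a library (adjusted p up to 0.197, edgeR) and 1 of 8 other alternatives. COL27A1, a chain of developing cartilage, ranged from 2.16 to 7.27 CPM in Control and from 3.74 to 13.7 CPM in CAMKV-KD and was not called. COL2A1, the cartilage fibril chain, had 0 counts in Control and 0, 8 and 16 in CAMKV-KD. COL24A1 had 3 counts in 1 library, and COL5A3 had none.

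**Figure D3:**
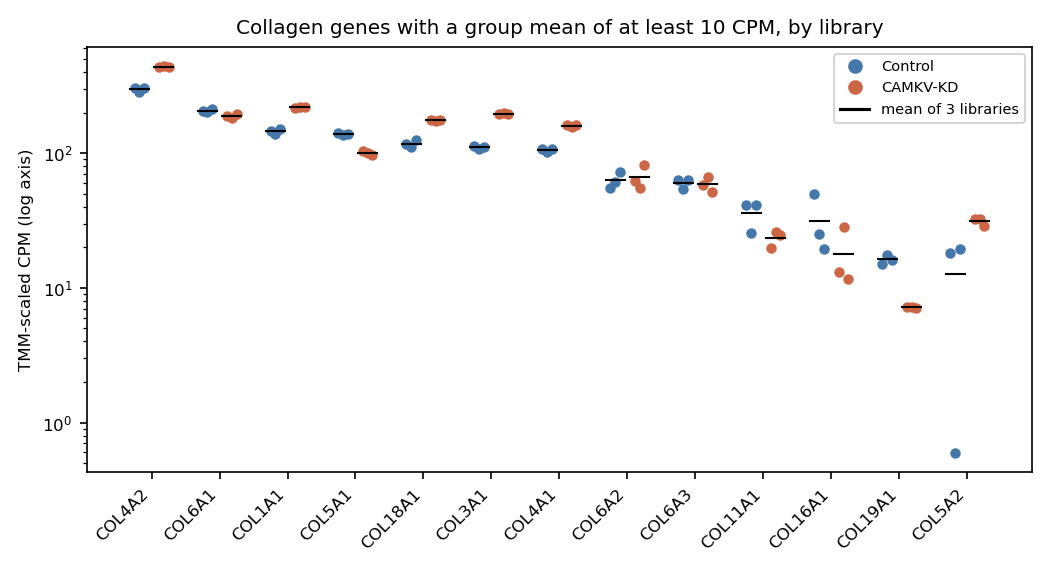
Level in each library (CPM, log axis) of the collagen genes with a group mean above 10 CPM, Control and CAMKV-KD side by side, with lines at the mean of 3 libraries. COL4A2, COL1A1, COL3A1, COL18A1 and COL4A1 separate upward and COL5A1, COL19A1 and, by a small step, COL6A1 downward, whereas 1 Control library lies far below the rest for COL5A2.

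The FACIT collagens changed in both directions. COL19A1 (chromosome 6, 69866571 to 70209976, plus strand), whose product was found at basement membrane zones and at synapses in mouse, read 15.2, 17.6 and 16.2 CPM in Control. It read 7.27, 7.22 and 7.13 CPM in CAMKV-KD, lower in every library (log2 fold change −1.18 ± 0.09, SE; adjusted p = 0.000641, edgeR). Exons of LMBRD1 overlap it on the opposite strand, and LMBRD1 had a log2 fold change of −0.43 ± 0.20 (SE; adjusted p = 0.154, edgeR). The part of shared reads was not tested. COL22A1, known from tissue junctions such as that of muscle and tendon, read 2.64, 2.20 and 3.19 CPM in Control and 6.18, 5.67 and 5.53 CPM in CAMKV-KD. The groups did not overlap (1.11 ± 0.17, SE; adjusted p = 0.00547, edgeR).

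COL9A3, a type IX chain that coats cartilage fibrils, read 3.30, 4.77 and 3.63 CPM in Control and 1.82, 1.84 and 2.41 CPM in CAMKV-KD. It was called lower (−0.95 ± 0.21, SE; adjusted p = 0.0197, edgeR), but the call was lost without CAMKV-KD 1 (adjusted p = 0.0673) or CAMKV-KD 2 (0.0663). TCFL5, whose exons overlap it on the opposite strand, had a log2 fold change of −1.29 ± 0.93 (SE; adjusted p = 0.337, edgeR), and its part was not tested. The partner COL9A2 read 1.03, 0.413 and 1.79 CPM in Control and 1.37, 0.968 and 11.1 CPM in CAMKV-KD. CAMKV-KD 3 stood far above the other libraries, and the gene was not called (2.05 ± 1.1, SE; adjusted p = 0.22, edgeR). Without that library the log2 fold change was 0.12. COL16A1, which occurs in skin and cartilage matrices, read 50.1, 25.1 and 19.6 CPM in Control and 13.2, 28.3 and 11.6 CPM in CAMKV-KD. Its groups overlapped, and it was not called (−0.84 ± 0.51, SE; adjusted p = 0.26, edgeR). The log2 fold change was −0.34 without Control 1 and −1.35 without CAMKV-KD 2. Exons of the antisense gene AC114488.2 overlap those of COL16A1, and the part of shared reads was not tested. COL9A1, COL12A1, COL14A1, COL20A1 and COL21A1 had at most 9 counts in any library and were not tested.

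Of the 5 tested genes of type VI collagen, which forms beaded filaments around cells, 1 was called, COL6A1 (20%, beside 36.3% of all tested genes). COL6A1 was the most abundant collagen transcript per summed exon length in both groups. It read 207.3, 202.0 and 212.4 CPM in Control and 189.3, 183.9 and 194.1 CPM in CAMKV-KD. The groups did not overlap and the gene was called lower (log2 fold change −0.13 ± 0.036, SE; adjusted p = 0.0385, edgeR). That call was lost when any 1 of the 6 libraries was left out (adjusted p from 0.0508 to 0.115), with library totals in place of TMM (0.195) and with no filter on low counts (0.0582). The partner chain COL6A2 read 54.7, 61.4 and 72.9 CPM in Control and 62.3, 55.6 and 81.3 CPM in CAMKV-KD. COL6A3, the large chain of the heterotrimer, read 63.7, 54.3 and 63.8 CPM in Control and 57.8, 66.5 and 51.8 CPM in CAMKV-KD. Neither was called, with log2 fold changes of 0.08 ± 0.18 and −0.05 ± 0.12 (SE; adjusted p = 0.78 and 0.798, edgeR) and overlapping groups. The alternative chain genes COL6A5 and COL6A6 varied widely between libraries of one group and were not called, with log2 fold changes of 0.32 ± 1.5 and −0.25 ± 0.69 (SE; adjusted p = 0.888 and 0.816, edgeR). COL6A5 had 224, 4 and 163 counts in Control and 233, 230 and 10 in CAMKV-KD. COL6A6 ranged from 2.69 to 11.8 CPM in Control and from 3.61 to 7.43 CPM in CAMKV-KD. COL6A4 was not analysed here.

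Among the rest, COL7A1, the anchoring fibril collagen that ties skin epithelium to dermis, rose. It read 3.88, 3.53 and 4.44 CPM in Control and 6.83, 7.36 and 7.22 CPM in CAMKV-KD (0.85 ± 0.12, SE; adjusted p = 0.00488, edgeR). The groups did not overlap. COL26A1, a short collagen first found in mouse testis and ovary, read 3.92, 4.41 and 5.34 CPM in Control and 12.8, 7.36 and 7.35 CPM in CAMKV-KD. The first CAMKV-KD library stood above the others. The gene was called higher (1.01 ± 0.28, SE; adjusted p = 0.0389, edgeR), but not when any 1 library was left out (adjusted p from 0.0504 to 0.112), and the log2 fold change was 0.69 without CAMKV-KD 1.

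COL28A1, a von Willebrand-domain collagen known from peripheral nerve in mouse, had 31, 36 and 26 counts in Control and 0 in all 3 CAMKV-KD libraries. Its level was 1.37 ± 0.254 CPM (SD, n = 3) in Control. Against a floor of 3 counts per library, averaged over CAMKV-KD as 0.133 CPM, it was at least 10.2-fold lower (adjusted p = 0.00274, edgeR). COL28A1 passed the filter only through Control, so this p-value is not separate support, and the call was lost with the replicate block. COL25A1, a membrane-spanning collagen of neurons, read 1.12, 1.42 and 9.06 CPM in Control and 0.202, 0.436 and 0.357 CPM in CAMKV-KD. Every CAMKV-KD library lay below every Control library, and Control 3 was far above the others. COL25A1 too passed the filter through its Control counts. The gene was called lower (−3.54 ± 1.0, SE; adjusted p = 0.0476, edgeR), and the log2 fold change was −1.93 without Control 3. Without Control 2 or any 1 of the CAMKV-KD libraries the call was lost (adjusted p up to 0.135), as it was in limma-voom (0.148) and with no filter (0.0522).

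The other membrane-spanning and short-chain collagens were not called. COL23A1 read 5.87, 0.0918 and 6.55 CPM in Control and 3.56, 2.91 and 3.74 CPM in CAMKV-KD. The Control 2 value rested on 2 counts, and without that library the log2 fold change was −0.87 with an adjusted p of 0.0247 (edgeR), against −0.29 and 0.867 with it. No other fit called COL23A1. COL13A1 ranged from 0.583 to 4.54 CPM in Control and from 0.533 to 5.70 CPM in CAMKV-KD. COL10A1, the collagen of hypertrophic cartilage, ranged from 1.10 to 1.36 CPM and from 1.13 to 1.69 CPM, and COL8A2, of the cornea and vessel wall, did not exceed 0.872 CPM. On the opposite strand the span of NT5DC1 overlaps that of COL10A1, without overlap of exons. NT5DC1 read 188.4 to 289.2 CPM in Control and 140.9 to 265.1 CPM in CAMKV-KD, and its part in the COL10A1 counts was not tested. COL8A1 and COL17A1 had at most 4 counts in a library and were not tested. In all, 15 collagen genes were not tested, none with more than 16 counts in any library.

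Levels of different genes were compared per kilobase of summed exon length. On this scale the order in Control was COL6A1 (38.8 ± 0.97 CPM per kb), COL3A1 (16.2 ± 0.42), COL4A2 (15.5 ± 0.56), COL1A1 (14.8 ± 0.63), COL18A1 (13.8 ± 0.89), COL5A1 (12.4 ± 0.21), COL6A2 (11.7 ± 1.70) and COL4A1 (7.17 ± 0.18; SD, n = 3 each). From COL3A1 to COL18A1 the ranges of mean ± SD of neighbouring genes overlapped, as did those of COL5A1 and COL6A2, whereas COL6A1 and COL4A1 stood apart. In CAMKV-KD, COL6A1 (35.4 ± 0.95 CPM per kb) was followed by COL3A1 (28.9 ± 0.28), COL4A2 (22.7 ± 0.15), COL1A1 (22.3 ± 0.35) and COL18A1 (20.6 ± 0.16), while COL5A1 (8.98 ± 0.25) moved from sixth place to below COL4A1 (10.9 ± 0.16). The next gene, COL11A1, reached only 3.95 ± 0.97 CPM per kb in Control. Summed exons include retained introns of minor transcripts, which are long for the type IV genes. Per kilobase of the transcript with the longest coding sequence, a scale chosen after seeing the data, COL4A2 reached 46.1 ± 1.65 in Control and 67.6 ± 0.45 in CAMKV-KD, beside 48.9 ± 1.22 and 44.6 ± 1.20 for COL6A1. On that scale the 2 genes changed places in CAMKV-KD, and COL1A1 (21.6 ± 0.91) lay above COL3A1 (19.9 ± 0.51) in Control.

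Ratios between chains that share a molecule or fibril do not depend on library scaling. Of 11 planned pairs, 8 had both chains past the filter, and each was compared with a two-sided exact permutation test over the 6 libraries, which cannot give a p below 0.1. The COL4A1 to COL4A2 count ratio was 0.350, 0.357 and 0.351 in Control and 0.371, 0.357 and 0.370 in CAMKV-KD. Both chains rose, and the log2 difference of their ratio was 0.052 (CAMKV-KD minus Control; exact permutation p = 0.2, 0.267 adjusted over the 8 pairs), with overlapping groups. The ratio of COL3A1 to COL1A1 was 0.776, 0.775 and 0.730 in Control and 0.913, 0.893 and 0.886 in CAMKV-KD. It was higher in every CAMKV-KD library, by 0.24 on the log2 scale (exact permutation p = 0.1, the smallest possible; 0.16 adjusted). The ratio of COL11A1 to COL11A2 was 45.05, 23.4 and 28.5 in Control and 5.34, 9.05 and 6.0 in CAMKV-KD. It too did not overlap, with a log2 difference of −2.23 (exact permutation p = 0.1; 0.16 adjusted).

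In the remaining pairs a low or single deviating library weighed on the ratio. The COL5A1 to COL5A2 ratio was 7.72, 227.8 and 7.15 in Control and 3.20, 3.11 and 3.38 in CAMKV-KD. It did not overlap (log2 difference −2.85; exact permutation p = 0.1, 0.16 adjusted), and the difference was −1.20 without Control 2. For COL9A2 to COL9A3 the log2 difference was 2.37 (exact permutation p = 0.1, 0.16 adjusted) and 1.41 without CAMKV-KD 3. For COL1A1 to COL1A2 no test is read, because COL1A2 had 3 counts in CAMKV-KD 1. Without that library the log2 difference was 0.95. The type VI pairs overlapped between groups. COL6A1 to COL6A2 differed by −0.20 (exact permutation p = 0.5, 0.571 adjusted), and by −0.10 without Control 1 and −0.063 without CAMKV-KD 3. COL6A3 to COL6A1 differed by 0.083 (exact permutation p = 0.7, 0.7 adjusted), and by 0.024 when Control 2 was left out. Leaving out CAMKV-KD 2 gave −0.031, and leaving out CAMKV-KD 3 gave 0.19.

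**Figure D4:**
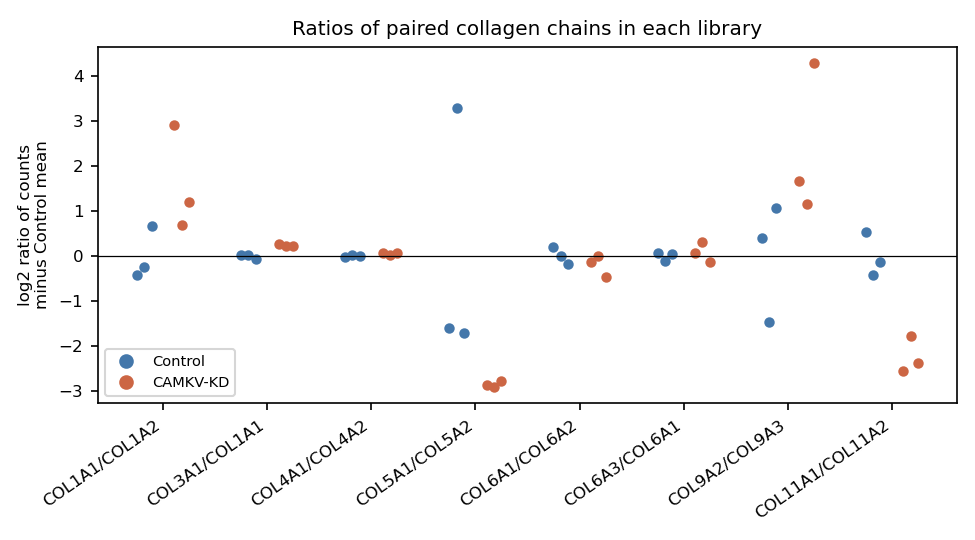
Log2 ratio of the counts of partner chains in each library, minus the Control mean of that pair (vertical axis), for the 8 pairs, with Control and CAMKV-KD libraries as separate points. COL4A1 to COL4A2 lies near 0 in all 6 libraries, whereas COL11A1 to COL11A2 and COL5A1 to COL5A2 lie lower in CAMKV-KD, the latter with Control 2 far above the rest, and the highest COL1A1 to COL1A2 point rests on 3 COL1A2 counts.

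The genes that make, assemble and bind collagen were examined from 9 lists holding 135 genes of the table, of which 104 were tested. Of these, 28 were higher and 27 lower in CAMKV-KD, so 52.9% were called beside 36.3% of all genes, and the median log2 fold change was −0.02. The lists were chosen with earlier results of these data known, so the 2 shares are a description and not a test. In fits leaving out 1 library each, 36 of these 55 calls were kept every time, and those lost among the named genes are given with the highest adjusted p. Of 12 tested enzymes of prolyl and lysyl hydroxylation, 2 were higher and 4 lower (50% called and median −0.12, beside 36.3% and 0.0045 for all genes). COLGALT2, a galactosyltransferase acting on hydroxylysine, was 1.05 ± 0.11 (log2 fold change ± SE) and the lysyl hydroxylase PLOD3 was 0.23 ± 0.052. The prolyl hydroxylase subunit P4HA1 was −0.88 ± 0.20, the lysyl hydroxylases PLOD1 and PLOD2 were −0.44 ± 0.030 and −0.32 ± 0.045, and CRTAP, a partner of prolyl hydroxylase P3H1, was −0.16 ± 0.027. P4HA1 lost its call when Control 2 or CAMKV-KD 3 was left out (highest adjusted p 0.0595), and PLOD3 without Control 1 or the first or the third CAMKV-KD library (up to 0.0706).

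Of 18 tested genes of procollagen folding and export, 3 were higher and 6 lower (50% called, beside 36.3% of all tested genes, median −0.11). SERPINH1, the collagen-specific chaperone also called HSP47, read 120.2, 97.8 and 131.5 CPM in Control and 203.3, 196.9 and 232.4 CPM in CAMKV-KD. It rose without overlap (0.86 ± 0.13, SE; adjusted p = 0.00529, edgeR). TRAPPC2, which acts in export of procollagen from the endoplasmic reticulum, was 0.36 ± 0.058, and the chaperone HSPA5 was 0.10 ± 0.023. The largest decreases were CREB3L1, a membrane-bound transcription factor of collagen secretion (−0.65 ± 0.15), the collagen-binding glycoprotein SPARC (−0.57 ± 0.11), the prolyl isomerase FKBP14 (−0.44 ± 0.049) and the ion channel TMEM38B (−0.30 ± 0.077). HSPA5 and CREB3L1 kept their calls only without Control 2 (otherwise adjusted p up to 0.0754 and 0.0717), and TMEM38B only without Control 1 (up to 0.0905).

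After secretion, 1 of 7 tested genes of propeptide removal was called (14.3%, beside 36.3% of all tested genes). ADAMTS14, an aminopropeptidase of procollagen, was lower (−0.87 ± 0.21) and was called without CAMKV-KD 1 but in no other fit that left out a library (adjusted p up to 0.082). Of 5 tested crosslinking genes, the lysyl oxidase family member LOXL2 was higher (0.65 ± 0.11), and LOXL1 (−0.67 ± 0.088) and LOX (−0.37 ± 0.032) were lower. Calls thus covered 60% of the crosslinking genes, beside 36.3% of all tested genes. Of 9 tested fibril-associated genes, 4 were higher and 3 lower (77.8% called, beside 36.3% of all tested genes, median −0.31). FN1, the fibronectin on which collagen fibrils assemble, was 2.42 ± 0.031. TNXB (0.76 ± 0.21), the small leucine-rich proteoglycan LUM (0.39 ± 0.041) and FBLN1 (0.36 ± 0.086) were also higher. The proteoglycans FMOD (−0.67 ± 0.19) and BGN (−0.31 ± 0.039) and the matricellular THBS1 (−0.66 ± 0.083) were lower. FMOD lost its call without any 1 library (adjusted p up to 0.112), TNXB without any except Control 2 (up to 0.117) and FBLN1 without 1 of the first 2 libraries of either group (up to 0.0747).

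Of 11 tested partners of type IV collagen in basement membranes, 6 were lower, 1 was higher and 4 were not called, beside 19% of all tested genes lower and 17.3% higher. Their median log2 fold change was −0.54, and its difference from that of the basement membrane collagens was not tested. The lower count was 3 without Control 3 or CAMKV-KD 2. The laminin chain LAMA5 read 16.2, 17.02 and 17.05 CPM in Control and 9.29, 8.72 and 10.2 CPM in CAMKV-KD (−0.83 ± 0.091, SE; adjusted p = 0.00186, edgeR). The heparan sulfate proteoglycan AGRN was −0.54 ± 0.044, the laminin chain LAMA4 −1.15 ± 0.30 and NID1, a linker of laminin and type IV collagen, −0.41 ± 0.10. LAMA1 was higher (0.44 ± 0.088). LAMA4 kept its call only without CAMKV-KD 1 (otherwise adjusted p up to 0.0917), and NID1 only without CAMKV-KD 3 (up to 0.0886).

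**Figure D5:**
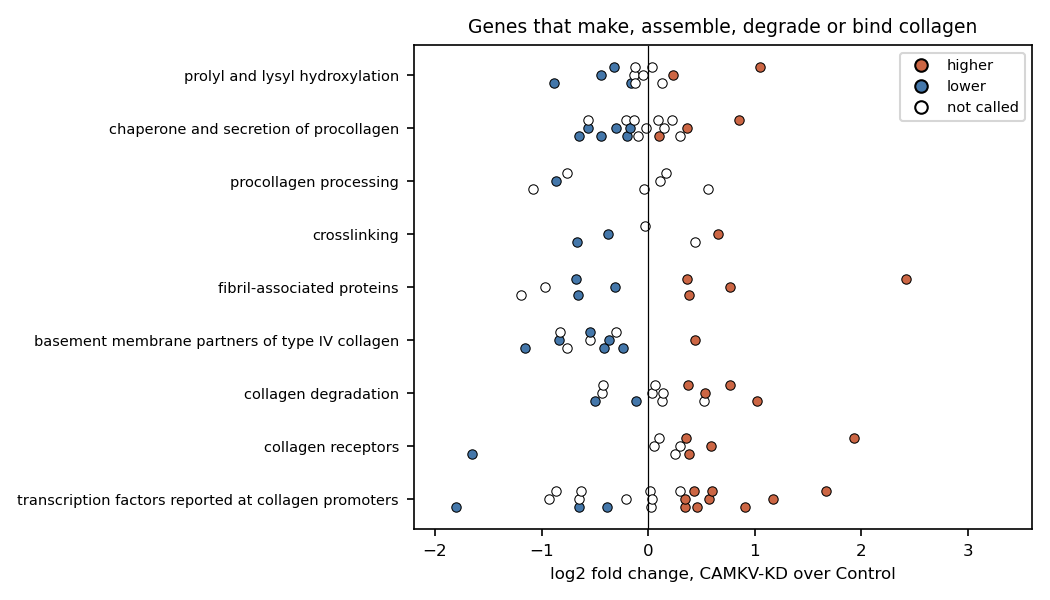
Log2 fold change, CAMKV-KD against Control (horizontal axis), of each tested gene in the 9 collagen-related lists, 1 point a gene, filled where called higher or lower and open where not called. All tested basement membrane partners except LAMA1 lie below 0, and FN1 is the point farthest to the right, at 2.42.

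Of 13 tested genes of collagen breakdown, 4 were higher and 2 lower (46.2% called, beside 36.3% of all tested genes, median 0.13). The membrane collagenase MMP14 was 1.02 ± 0.20, the metalloproteinase inhibitor TIMP1 0.77 ± 0.057, the cathepsin CTSB 0.53 ± 0.16 and the gelatinase MMP2 0.37 ± 0.035. CTSL (−0.50 ± 0.13) and TIMP2 (−0.11 ± 0.032) were lower. CTSB kept its call only without CAMKV-KD 2 (otherwise adjusted p up to 0.133), CTSL only without CAMKV-KD 1 (up to 0.102) and TIMP2 in no such fit (up to 0.125). Of 9 tested receptors, 4 were higher and 1 lower (55.6% called, beside 36.3% of all tested genes, median 0.30). ITGA11, the integrin chain that pairs with ITGB1 to bind type I collagen, read 8.63, 8.35 and 6.77 CPM in Control and 30.0, 29.9 and 31.0 CPM in CAMKV-KD (1.93 ± 0.11, SE; adjusted p = 0.000323, edgeR). MRC2, an endocytic collagen receptor (0.59 ± 0.040), the adhesion receptor ADGRG6, which binds type IV collagen (0.38 ± 0.095), and the collagen receptor kinase DDR2 (0.36 ± 0.023) were higher. ADGRG1, a receptor of type III collagen in brain, was lower (−1.65 ± 0.13). ADGRG6 lost its call without any 1 library (adjusted p up to 0.0858).

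Of 21 tested transcription factors reported at collagen promoters, 9 were higher and 3 lower (median 0.04). Calls thus covered 57.1% of these factors, beside 36.3% of all tested genes (17.3% higher and 19% lower). PRRX1 (1.67 ± 0.080), SOX6 (1.18 ± 0.24), SNAI2 (0.91 ± 0.065) and CBFB (0.60 ± 0.12) were the largest increases. TWIST1 (−1.80 ± 0.41), CREB3L1 and ETS1 (−0.39 ± 0.044) were lower. TWIST1 lost its call without 1 of the first 2 libraries of either group (adjusted p up to 0.0734), and SOX6 without CAMKV-KD 1 (0.0501). No relation of these factors to the collagen genes was tested.

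The label of the cells was set beside marker genes. Of the sympathoadrenal neuroblast markers reported here, ISL1 (log2 fold change −0.75 ± 0.11, SE) and PHOX2A (−0.66 ± 0.043) were lower, and GATA3, HAND2 and DBH passed the filter and were not called. Of 8 fibroblast and stromal markers, 6 passed the filter, and FAP and POSTN had 0 counts in every library. Their summed level was 626.3 to 973.7 CPM in Control and 780.6 to 1070 CPM in CAMKV-KD, with LUM and THY1 (0.26 ± 0.076) higher, PDGFRB (−0.56 ± 0.065) lower and 3 not called. Of the Schwann and glial markers reported here, SOX10 was at 0 in every library, S100B did not pass the filter, ERBB3 was not called and PMP22 was higher (0.22 ± 0.052). The 4 endothelial markers summed to 0.826 to 0.987 CPM in Control and 2.095 to 2.38 CPM in CAMKV-KD, with TEK called higher (1.88 ± 0.21). At these low levels TEK may have passed the filter only through CAMKV-KD, where it was higher, so its call is not separate support. Of the cartilage markers, ACAN was at 0 in every library and SOX9 was higher (0.43 ± 0.063), and MATN1 was not called. The part of any such cells in the collagen values was not tested.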

How the data were processed

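Values are counts per gene, deposited by the authors as 1 table for 6 libraries. Total RNA was extracted with TRIzol and made into libraries from 100 ng with a SMARTER kit, per the labels' protocols. The submitters' processing notes name FastQC 0.11.2, HISAT2 2.1.0, StringTie 1.3.5 and GRCh38.p13. Strand, annotation and counting settings: not given in the sources used here. Among the 44 collagen entries, 25 carry a locus identifier of the StringTie kind and 19 an Ensembl identifier, and none of those tested shares its locus with another symbol. Positions come from GENCODE release 29 and promoter windows from RefSeq (GRCh38.p14), which held a window for 32 collagen genes.

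Here, counts were filtered with filterByExpr, scaled by TMM and tested with edgeR 4.0.16 (glmQLFit, glmQLFTest, group only) in R 4.3.3 over 13366 entries, with Benjamini-Hochberg adjustment. Each SE was derived from the fold change and the F statistic. Alternatives were other scalings and filters, DESeq2 1.42.0, limma-voom (limma 3.58.1), a replicate block and leaving out each library. The text names every collagen gene, with all values for called genes, their partner chains and genes above 10 CPM, and per list at most the 4 largest called changes in each direction. Members and lists were chosen with earlier results of these data known. Some cell type markers are not reported here. Chi-square statistics between libraries were 41.5 to 52.1 per degree of freedom within groups, more than counting error alone gives. This statistic cannot tell separate cultures from repeat libraries of 1 culture.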

Additional observations from a re-analysis of the deposited data

How the results depend on the processing

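Over 14 alternatives, 374 of 405 fits of single collagen genes kept their side of the threshold, 27 lost and 4 gained a call. The sign turned in 16 of those 374, all of genes not called (COL6A2, COL6A3, COL6A5, COL6A6, COL13A1 and COL23A1). The collagen genes called higher numbered 8 or 9 throughout, against 9. Those called lower numbered 3 to 6 in fits without 1 library and 2 with the replicate block, against 6. The median log2 fold change of tested collagen genes, 0.24, was 0.016 with no filter, 0.013 in DESeq2 and −0.036 to 0.33 without 1 library. Each median was taken over the collagen genes of its own fit. With no filter and in DESeq2 these include genes of few counts that the main filter removed. The COL6A3 to COL6A1 log2 difference ran from −0.031 to 0.19 without 1 library. Over all genes, 4857 were called, 3337 with the replicate block (1526 higher), 3854 to 3980 without 1 library, and 5716 in DESeq2. Deviations of same-numbered libraries correlated at −0.00968, −0.0621 and −0.0318, so the numbers were not taken as pairs. The block ended the calls of COL9A3, COL6A1, COL26A1, COL28A1 and COL25A1, and 10 collagen genes were called with and without it. It ended 18 of the 55 calls in the collagen-related lists, among them LAMA1 (adjusted p = 0.0543), MMP14 (0.0635) and KDELR2 (0.0540), which fits without 1 library kept. Library totals raised the median of all genes by 0.060.

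Per kilobase of the longest coding transcript (chosen after seeing the data), Control levels were 48.9 for COL6A1, 46.1 for COL4A2, 21.6 for COL1A1, 19.9 for COL3A1, 18.2 for COL6A2, 17.9 for COL18A1, 16.3 for COL5A1, 16.0 for COL4A1, 5.64 for COL6A3, 5.51 for COL16A1 and 2.62 for COL19A1, all above the values per summed exon length because the transcripts are shorter than the summed exons. Apart from this length scale, the causes of these shifts were not tested. Depth limits the 15 untested genes and COL1A2, COL8A2, COL10A1, COL25A1 and COL28A1, which rest on few counts. COL28A1 had at most 36 counts in any library.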
